A study of Mus musculus with 2 samples.

Results

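The 7 genes described here are markers of mesothelium, measured in RNA from tissue labelled as mouse subcutaneous fat: Msln, Upk3b, Upk1b, Lrrn4, Gpm6a, Wt1 and Bnc1. They were chosen by name, and all 7 were found among the 43346 annotated genes of the deposited tables. The series holds a single group of 2 libraries, labelled biological replicates 1 and 2, from fat pads of C57BL/6J littermates of both sexes aged 8 weeks. The animals carried no treatment or engineered allele that the labels name, males and females were pooled, and both libraries stand under 1 donor record. The libraries were stranded and came from polyA-selected, ribosome-depleted RNA longer than 200 nt. Replicate 1 held 53601218 estimated gene counts and replicate 2 held 57500971.

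Mesothelium is the flat epithelium of mesodermal origin that covers the peritoneum, pleura and pericardium and the organs inside them, and it secretes the fluid that lets these surfaces slide. It coats visceral fat pads, whereas a fat pad under the skin has no such covering. Its cells carry a surface glycoprotein, mesothelin, and uroplakins that are otherwise known from the bladder lining, and they keep the transcription factor WT1 from the embryonic coelomic epithelium. Several of these genes have other sites of expression: Wt1 in gonad, kidney podocytes and the stroma of the female reproductive tract, Gpm6a in neurons and Bnc1 in keratinocytes.

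Wt1 makes several proteins by alternative splicing, and its forms are shown first because the results below divide the reads among them. Exon 5 is a cassette of 51 bases (GRCm38, chr2:105144142-105144192, plus strand, coding). At the end of exon 9 an alternative donor adds 9 bases (chr2:105170010-105170018, coding) that encode Lys-Thr-Ser, called KTS, between the last pair of zinc fingers. The form without KTS is known as a DNA-binding regulator, and the form with it binds DNA less well and associates with RNA processing. The sequences below are from GENCODE transcripts, 5′ to 3′, and capitals mark the 9 KTS bases and the 51 bases of exon 5, with neighbouring exon bases in lower case.
Wt1-205 at the KTS site: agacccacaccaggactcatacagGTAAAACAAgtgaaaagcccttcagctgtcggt
Wt1-204 at the KTS site: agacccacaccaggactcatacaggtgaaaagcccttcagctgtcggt
Wt1-205 at exon 5: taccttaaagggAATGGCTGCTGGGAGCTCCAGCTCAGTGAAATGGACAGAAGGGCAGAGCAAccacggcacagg

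All 7 genes were detected in both libraries and all were higher in replicate 1, on the scale of TPM (a relative abundance corrected for transcript length, whose sum is the same in every library). In both libraries 6 of them reached 1 TPM, and Bnc1 did so only in replicate 1. Together they made up 291 TPM in replicate 1 and 63.9 TPM in replicate 2. The difference was uneven: Wt1 differed far more than the others, and without it the sums were 150.9 and 52.9 TPM. In bulk tissue, fewer cells of a type and less RNA per cell cannot be told apart.

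The RNAs of the surface proteins came in 3 ranges. Upk3b (ENSMUSG00000042985.6, GRCm38 chromosome 5, 136038496 to 136046487), a uroplakin of mesothelial cell membranes, was at 78.9 TPM in replicate 1 and 32.1 in replicate 2, which is 55.5 ± 33.1 (SD, n = 2). Upk3b had the most abundant RNA of the surface protein genes in each library, and of 43346 genes it ranked 1938 and 3420 in replicates 1 and 2. Its single annotated transcript took 6326 and 3017 counts. Msln (ENSMUSG00000063011.6, chromosome 17, 25748613 to 25754378), which encodes mesothelin, was at 22.8 and 8.18 TPM (15.5 ± 10.3). Upk1b (ENSMUSG00000049436.4, chromosome 16, 38773184 to 38800328), a tetraspanin that partners uroplakins of type III, was at 17.3 and 4.85 TPM (11.1 ± 8.83). The 2 uroplakins were thus unequal, with Upk1b at 0.22 of the TPM of Upk3b in replicate 1 and 0.151 in replicate 2.

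Lrrn4 (ENSMUSG00000043110.2, chromosome 2, 132868305 to 132880891), a leucine-rich repeat membrane protein, was at 24.8 and 5.87 TPM in replicates 1 and 2 (15.3 ± 13.4, SD, n = 2). Gpm6a (ENSMUSG00000031517.7, chromosome 8, 54954843 to 55060871), a membrane glycoprotein of the proteolipid family, was at 3.59 and 1.16 TPM (2.38 ± 1.72). Msln and Lrrn4 changed places between the libraries: Lrrn4 was the higher in replicate 1 and Msln in replicate 2. Gpm6a was low in both libraries, and its 422 and 160 counts were few beside those of Upk3b.

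Of the 2 transcription factors, Wt1 (ENSMUSG00000016458.9, chromosome 2, 105126529 to 105173616), a zinc finger protein, was at 140.3 TPM in replicate 1 and 10.98 in replicate 2 (75.6 ± 91.4, SD, n = 2), from 7937 and 686 counts. Its SD exceeded its mean, so these libraries do not fix its level. Bnc1 (ENSMUSG00000025105.8, chromosome 7, 81966672 to 81992292), the zinc finger protein basonuclin 1, was at 3.46 and 0.72 TPM (2.09 ± 1.94), from 578 and 141 counts. By mean TPM the order was Wt1, Upk3b, Msln, Lrrn4, Upk1b, Gpm6a and Bnc1. Of neighbours in this order, only Upk3b and Msln had means farther apart than the larger of their SDs. These SDs include the shift toward replicate 1 that all 7 genes shared, so the order was also read within each library. Lrrn4 was above Upk1b in each. Their deposited intervals were 23.7 to 25.4 and 16.2 to 18.3 TPM in replicate 1, and 5.45 to 6.21 and 4.29 to 5.325 in replicate 2. Upk1b was above Gpm6a in the same way. Upk3b was above Msln in each library, and their deposited intervals lay apart, at 76.2 to 80.1 and 21.5 to 23.7 TPM in replicate 1 and at 30.6 to 32.9 and 7.52 to 8.73 in replicate 2. Within replicate 1 the authors' deposited intervals for TPM overlapped for Gpm6a (3.23 to 3.91) and Bnc1 (3.15 to 3.71). In replicate 2 they did not, at 0.979 to 1.34 and 0.605 to 0.839.

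**Figure D1:**
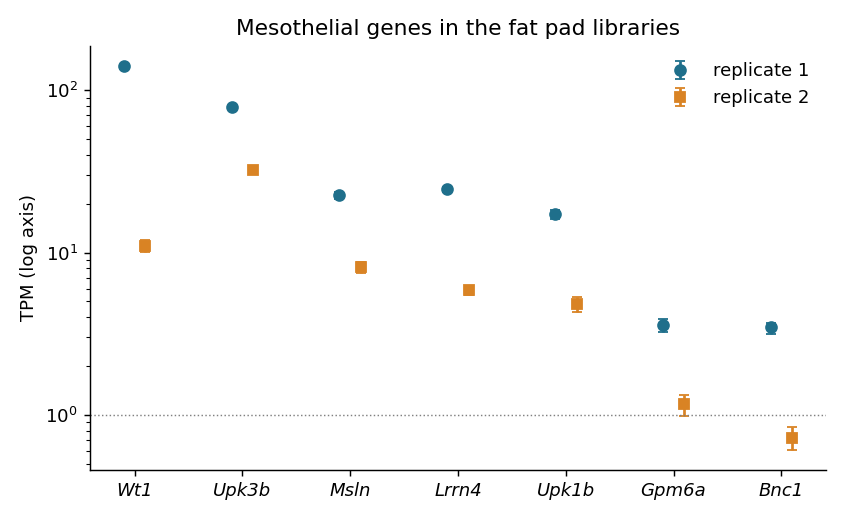
TPM of the 7 genes (log axis) in replicate 1 (circles) and replicate 2 (squares), with the authors' deposited interval for each estimate as bars and a dotted line at 1 TPM. Replicate 1 is the higher for each gene, and the gap is widest for Wt1, at 140.3 against 10.98.

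To compare the libraries, counts were scaled with TMM factors, which set the typical gene to a ratio near 1 (the median log2 ratio of replicate 1 over replicate 2 was -0.04 over the 13403 genes whose scaled counts averaged 100 or more). All 7 genes passed that count minimum. The call required that the whole exact 95% interval of the ratio lie beyond 2-fold. These intervals cover counting error only, and with 1 library on each side there is no test of a condition. By this rule 4 of the 7 genes were higher in replicate 1 and 0 were higher in replicate 2. Over all 13403 genes, 12.5% were called higher in replicate 1 and 10.6% in replicate 2. The median log2 ratio of the 7 genes was 1.20.

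Wt1 had the largest ratio of the 7, at 8.69-fold (95% counting interval 8.04 to 9.41), with scaled counts of 6878 in replicate 1 and 792 in replicate 2. Of the 13403 genes, 521 had a larger ratio than Wt1 in this direction. Bnc1 was higher by 3.08-fold (2.56 to 3.73), with scaled counts of 501 and 163, and Lrrn4 by 2.71-fold (2.51 to 2.92), with 2829 and 1046. Upk1b, at 2.29-fold (2.02 to 2.60), just passed the bound. The other 3 were not called: Gpm6a was at 1.98-fold (1.65 to 2.39), Msln at 1.78-fold (1.63 to 1.95) and Upk3b at 1.57-fold (1.51 to 1.64). Both transcription factors thus stood above the best-known surface markers, Msln and Upk3b, in their ratio. Bnc1 was not set apart from the surface protein gene Lrrn4, as their intervals overlapped.

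These calls depend on the scaling. Scaling by the total count moved each log2 ratio by 0.51 toward replicate 1 and scaling by the spike-in RNAs by 0.46, and under each of them all 7 genes were called higher in replicate 1, Upk3b with the smallest log2 ratio, at 1.17 and 1.11. The background moved too, to 22.3% and 20.9% of genes called higher in replicate 1, and the share of all calls on that side went from 54.2% to 83.5% and 81.1%.

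**Figure D2:**
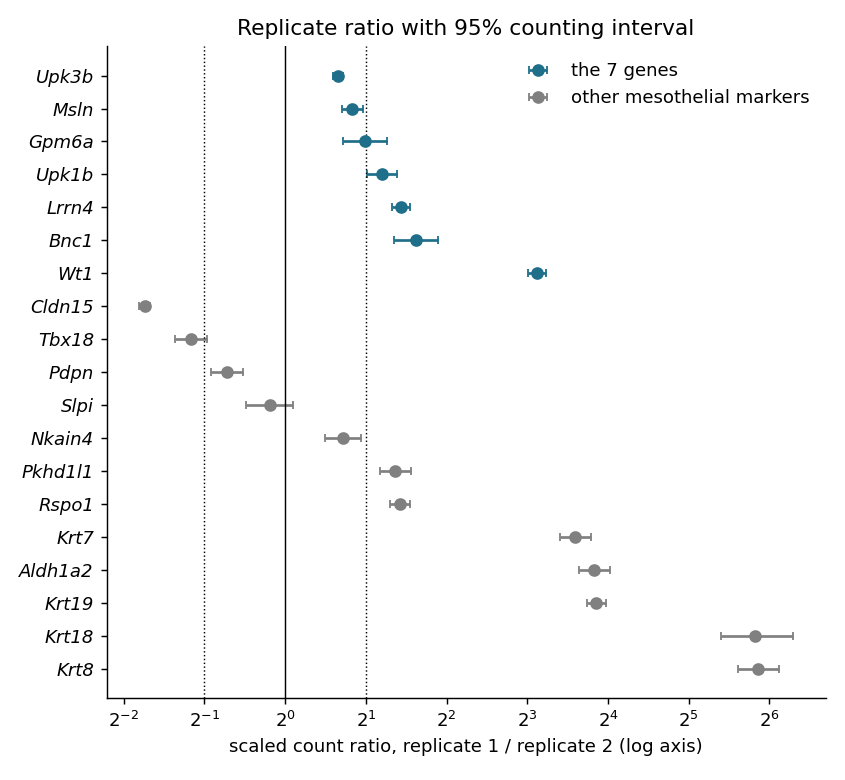
Ratio of scaled counts, replicate 1 over replicate 2 (log axis), for the 7 genes and for the 12 other mesothelial markers whose scaled counts averaged 100 or more. Bars are 95% counting intervals and dotted lines mark 2-fold in either direction. The 7 genes lie between 1.57-fold and 8.69-fold, whereas the other markers reach from Cldn15, on the side of replicate 2, to Krt8, at 58.1-fold.

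The proportions of the 7 genes to one another do not depend on scaling, since a common factor cancels within a library. Wt1 took 48.2% of their summed TPM in replicate 1 and 17.2% in replicate 2, and Upk3b took 27.1% and 50.3%. Wt1 was therefore the leading gene of the set in replicate 1 and Upk3b in replicate 2. The TPM of Wt1 was 1.78 times that of Upk3b in replicate 1 and 0.342 times in replicate 2. Taken in counts, the Wt1 to Upk3b ratio of replicate 1 exceeded that of replicate 2 by 5.52-fold (5.05 to 6.03). In percentage points the smaller shares moved less, with Lrrn4 at 8.52% and 9.19%, Bnc1 at 1.19% and 1.13%, and Msln at 7.82% and 12.8%. Upk1b was at 5.96% and 7.59%, and Gpm6a at 1.23% and 1.82%.

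Against Upk3b, each of the other 5 genes was also somewhat higher in replicate 1. The count ratio to Upk3b was 1.13-fold higher for Msln (1.03 to 1.25), 1.26-fold for Gpm6a (1.04 to 1.52), 1.46-fold for Upk1b (1.28 to 1.66), 1.72-fold for Lrrn4 (1.58 to 1.87) and 1.96-fold for Bnc1 (1.62 to 2.36). Among the 21 pairs of the 7 genes, 3 had a counting interval that included equal ratios: Msln with Gpm6a, Upk1b with Gpm6a, and Lrrn4 with Bnc1. The 7 genes did not share 1 common ratio between the libraries within counting error.

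**Figure D3:**
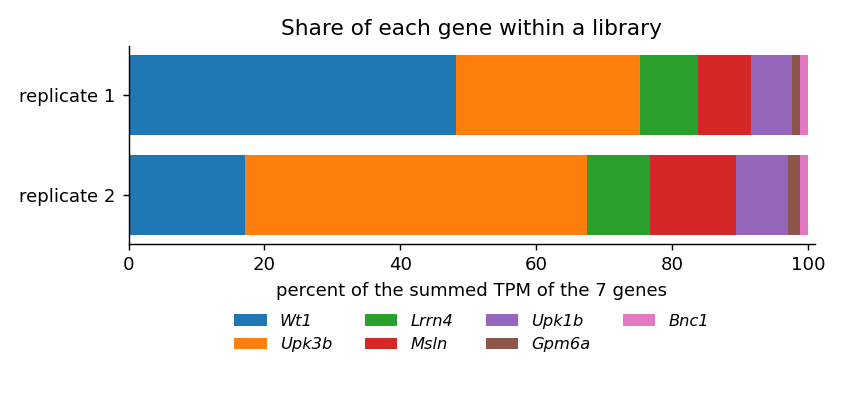
Share of each gene in the summed TPM of the 7 genes, as stacked bars for replicate 1 (above) and replicate 2 (below). Wt1 takes 48.2% above and 17.2% below, and Upk3b takes 27.1% and 50.3%.

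Wt1 was the only one of the 7 with more than 1 annotated transcript in the deposited tables. Of its 8 transcripts, Wt1-204, which lacks both KTS and exon 5, led in both libraries, with 54.3% of the gene's TPM in replicate 1 (3448 counts) and 53.7% in replicate 2 (312 counts). Wt1-205, which has both KTS and exon 5, took 20.4% and 16.2% (3089 and 226 counts). Wt1-203, with KTS and without exon 5, took 18.4% and 22.5% (977 and 109 counts). Wt1-204 was thus first by TPM in both libraries. The deposited TPM intervals of Wt1-205 and Wt1-203 overlapped in each library, at 27.0 to 29.5 and 21.7 to 29.8 in replicate 1 and at 1.41 to 2.04 and 1.51 to 3.51 in replicate 2, so these 2 cannot be put in order.

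The remaining Wt1 transcripts were minor. The retained-intron transcripts Wt1-208 and Wt1-206 took 4.15% and 1.19% in replicate 1 and 6.11% and 0.68% in replicate 2. Wt1-207, which skips a further exon, took 1.26% in replicate 1 and was at 0 in replicate 2. Wt1-201 and Wt1-202, which start at a first exon inside the gene (GRCm38, from 105130883), took 0.29% and 0 in replicate 1 and 0.81% and 0 in replicate 2. Of the TPM of the 6 coding transcripts, those from the upstream first exon held 99.7% and 99.1%.

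Summed over the 6 coding transcripts, forms without KTS held 57.4% of TPM in replicate 1 and 57.6% in replicate 2 (57.5 ± 0.137%, SD, n = 2). In TPM that was 76.2 against 56.6 for the forms with KTS in replicate 1, and 5.89 against 4.34 in replicate 2. The point estimates of the KTS balance differed by 0.19 percentage points between libraries whose Wt1 level differed 8.69-fold in scaled counts. This difference and the SD leave out the error of the estimates, which was larger. In replicate 2 the deposited TPM interval was 4.75 to 6.75 for Wt1-204, without KTS, and 1.51 to 3.51 for Wt1-203, with it. A steady balance therefore cannot be read from the 0.19 points. Forms with exon 5 held 21.5% and 17.4% (19.5 ± 2.91%).

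These shares rest on the annotated combinations of exons. All of the TPM without KTS was that of Wt1-204, which also has its own 3′ end: its last exon is 459 bases long, against 43 bases in Wt1-203 and 1390 in Wt1-205. Reads in that stretch and reads across the KTS site were not separated here. By expected counts in place of TPM, which weights long transcripts more, the forms without KTS held 45.3% and 47.6% and those with exon 5 held 40.6% and 34.5%.

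**Figure D4:**
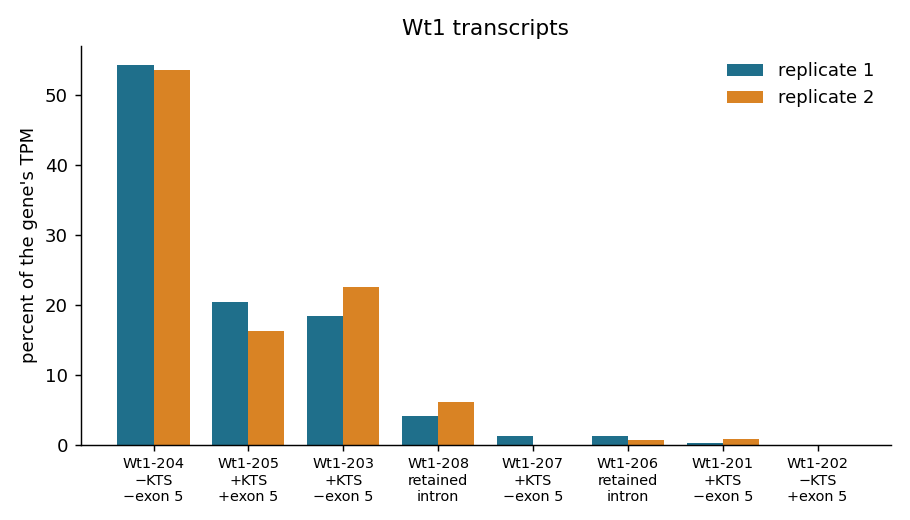
Percent of the TPM of Wt1 taken by each of its 8 annotated transcripts in replicate 1 and replicate 2, with the state of KTS and exon 5 under each name. Wt1-204 leads in both libraries, at 54.3% and 53.7%, and the next ranks are Wt1-205 and Wt1-203.

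Wt1os, the antisense RNA whose annotated start lies 18 bases from that of Wt1, was at 5.89 TPM in replicate 1 and 0.44 in replicate 2. It was 7.04-fold higher in replicate 1, like its neighbour. On the list of 11 genes of Wt1 antisense RNA, cofactors and known targets, 10 had enough counts, and 4 were called higher in replicate 1 and 0 in replicate 2. Besides Wt1os these were the retinoic acid synthesis gene Aldh1a2 (60.4 and 2.72 TPM), the ligand gene Wnt4 (10.9 and 0.25 TPM) and the receptor gene Amhr2 (585 and 135 counts). In TPM Amhr2 differed less, at 10.2 and 7.78. The authors' deposited intervals for Wt1os were wide, at 5.23 to 20.8 TPM in replicate 1 and 0.319 to 15.1 in replicate 2, so its TPM overlapped between the libraries. Aldh1a2 was the most abundant gene of the list in replicate 1. Of the others, the 2 with the highest mean TPM were within the bound: the sialomucin gene Podxl was at 50.9 and 34.5 TPM and the growth factor antagonist gene Spry1 at 36.8 and 35.4. The WT1-interacting protein gene Wtip, also within the bound, was at 35.7 and 20.4. Nphs1, a podocyte gene, had 0 counts in both libraries.

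Other genes used as mesothelial markers were split in direction. Of 14 listed, 13 were found (Muc16 was not matched) and 12 had enough counts, of which 7 were called higher in replicate 1 and 1 in replicate 2. Their median log2 ratio was 1.39, against -0.04 over all 13403 genes. The 7 included the keratin genes Krt7, Krt8, Krt18 and Krt19, with log2 ratios from 3.59 to 5.86, which raised this median. The markers apart from keratins lay on both sides. Rspo1, Pkhd1l1, Nkain4 and Aldh1a2, the last also counted among the Wt1 targets above, were higher in replicate 1. Cldn15, Tbx18, Pdpn and Slpi were higher in replicate 2. In replicate 1 the simple epithelial keratins led in level: Krt19 was at 223 TPM there and 10.3 in replicate 2, and Krt8 at 169.3 and 1.87. In replicate 2 the tight junction gene Cldn15 led. It was at 37.2 and 80.0 TPM and was 3.33-fold higher in replicate 2 (3.18 to 3.50). The Wnt pathway activator Rspo1, at 45.3 and 10.5 TPM, and Pkhd1l1, at 2.22 and 0.55, had ratios of 2.67-fold and 2.58-fold, between those of Upk1b and Bnc1. Nkain4, at 21.5 and 7.66 TPM, was within the bound at 1.64-fold (1.41 to 1.92), between Upk3b and Msln. On the side of replicate 2, besides Cldn15, were Tbx18, Pdpn and Slpi, none of them called. They were higher there by 2.25-fold (1.955 to 2.585), 1.64-fold (1.43 to 1.88) and 1.14-fold (0.933 to 1.395). Calb2, which encodes calretinin, a protein stain for mesothelium, had 1 and 0 counts. Keratins are shared by other epithelia, so the list does not define a single cell type.

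The relatives of the uroplakin members were low in replicate 2. Upk1a, the tetraspanin paralog of Upk1b, was at 19.0 TPM in replicate 1 and 2.22 in replicate 2. Upk3a was at 8.29 and 0.13 TPM, and Upk2 at 6.02 and 0.14, from 149 and 4 counts. In replicate 2, Upk3b at 32.1 TPM and Upk1b at 4.85 TPM thus stood above these 3 relatives, of which Upk1a, at 2.22 TPM, was the highest. In replicate 1, Upk1a and Upk1b were close, at 19.0 and 17.3 TPM. Upk3bl, a close relative next to Upk3b on chromosome 5, had 83 and 1 counts. Mslnl, the neighbour and paralog of Msln, had 71 and 20 counts.

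The other paralogs did not follow their members in a single way. Bnc2, at 34.5 and 10.3 TPM, was more abundant than Bnc1 in both libraries and was called higher in replicate 1, by 2.26-fold. Gpm6b, at 15.7 and 6.13 TPM, was more abundant than Gpm6a and within the bound. Lrrn4cl, whose product is named for its likeness to LRRN4, was at 10.8 and 20.3 TPM and was 2.94-fold higher in replicate 2 (2.72 to 3.17), the reverse of Lrrn4. Of the 12 genes on this list, 8 had enough counts, and 4 were called higher in replicate 1 and 1 in replicate 2.

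Markers of other cells known to express the same genes were counted beside them, and their part in the differences was not tested. The 10 genes listed for the female reproductive tract were all called higher in replicate 1, with a summed level of 734 TPM there and 37.9 in replicate 2. The homeobox gene Hoxa10 was at 164.3 and 14.2 TPM, the oestrogen receptor gene Esr1 at 155.9 and 18.2, and the homeobox gene Msx1 at 124.9 and 2.80. In replicate 2 several were near the floor, with 3 counts for Pax8, 2 for Wnt7a, 0 for Foxa2, 8 for Hand2 and 36 for Pgr. Others of the list were well above it, with 2653 counts for Esr1, 903 for Hoxa10, 212 for Msx1, 160 for Hoxa11 and 75 for Emx2. The 5 smooth muscle genes were also all called higher in replicate 1, with sums of 4924 and 513 TPM, led by Acta2 (3567 and 428 TPM), Actg2 (631 and 23.7) and Cnn1 (281.5 and 12).

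The lists for the other known sites of these genes gave mixed values. For podocytes, Nphs1 had 0 counts in both libraries. For gonadal supporting cells, Fshr and Cyp19a1 had 0 counts in both libraries and Amh 24 and 21, while Foxl2 had 475 in replicate 1 (12.3 TPM) and 0 in replicate 2. In neurons, where Gpm6a is a known marker, the 6 genes summed to 6.05 and 2.98 TPM, led by Stmn2 at 2.20 and 1.86, then Rbfox3 at 2.52 and 0.02 and Tubb3 at 1.01 and 0.69. The myelin gene Mbp, listed for Schwann cells, was at 13.5 and 16.5 TPM. In epidermis, where Bnc1 is known, the 8 genes summed to 8.49 and 3.23 TPM, with Trp63 at 2.19 and 2.40, Krt5 at 2.80 and 0.05 and Col17a1 at 1.66 and 0.32. The 4 urothelium genes summed to 33.9 and 2.65 TPM, from the uroplakin genes Upk1a, Upk3a and Upk2 given above and Krt20, which had 37 and 12 counts. Of these, 2 had enough counts, Upk1a and Upk3a, and both were called higher in replicate 1.

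Depot markers and adipocyte genes were also counted, and the series holds no other depot for comparison. All 6 adipocyte genes were called higher in replicate 2, with sums of 5834 and 22513 TPM in replicates 1 and 2, led by Fabp4 (1890 and 6723 TPM), Lpl (1175 and 5362) and Cidec (1123 and 4634). Of 5 genes known as markers of subcutaneous fat, Tbx15 had 5 and 7 counts, En1 3 and 10, and Shox2 3 and 29. Hoxc10 (5.95 and 17.9 TPM) and Hoxc9 (2.87 and 4.55) were present and were called higher in replicate 2. Of 2 genes known from visceral fat, where mesothelium lies, Tcf21 was at 138.5 and 23.9 TPM and was called higher in replicate 1, by 3.71-fold, and Gata6 was at 18.4 and 8.54 TPM and within the bound.

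**Figure D5:**
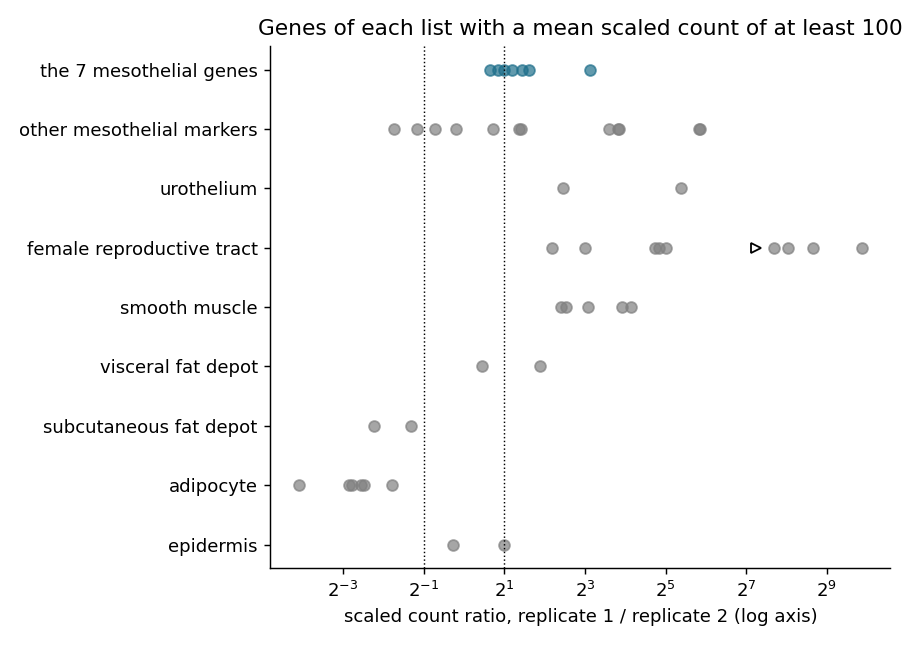
Ratio of scaled counts, replicate 1 over replicate 2 (log axis), for the 7 genes and for the members of 8 other lists whose scaled counts averaged 100 or more; each point is a gene, dotted lines mark 2-fold, and the open triangle is the lower bound for Foxa2, which had 0 counts in replicate 2. The 7 genes lie on the side of replicate 1, from 1.57-fold to 8.69-fold, and the 6 adipocyte genes lie on the side of replicate 2.

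RefSeq promoter windows on GRCm38.p6, running from 250 bases before to 50 after a gene's start, were matched for 4 of the 7 genes (Upk3b, Lrrn4, Bnc1 and Gpm6a, the last with 2 starts); Msln, Upk1b and Wt1 were not matched. They are shown for Upk3b and Lrrn4, surface protein genes with different ratios between the libraries, as the 250 bases before the start, 5′ to 3′ on the strand of the gene. Capitals mark GGAATG, the motif of TEAD factors, or its reverse complement. Upk3b lies on the plus strand (chr5:136038246-136038495) and Lrrn4 on the minus strand (chr2:132880863-132881112).
Upk3b: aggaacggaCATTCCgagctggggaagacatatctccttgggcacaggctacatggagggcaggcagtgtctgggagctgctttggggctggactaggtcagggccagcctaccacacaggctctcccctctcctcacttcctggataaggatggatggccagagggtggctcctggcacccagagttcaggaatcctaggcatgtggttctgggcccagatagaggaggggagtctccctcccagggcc
Lrrn4: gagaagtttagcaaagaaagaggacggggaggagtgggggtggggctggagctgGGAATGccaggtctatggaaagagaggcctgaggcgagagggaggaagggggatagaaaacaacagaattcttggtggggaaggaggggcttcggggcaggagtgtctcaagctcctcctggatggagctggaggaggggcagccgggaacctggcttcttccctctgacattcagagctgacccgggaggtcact

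Of 12 short motifs searched on both strands of the 5 windows, GGAATG was in 3, for Upk3b (241 bases before the start), Lrrn4 (196 before) and the upstream start of Gpm6a (125 before). It was in 14.7% of all 32851 promoter windows of that length. Both windows of Gpm6a, upstream (chr8:54779184-54779483) and downstream (chr8:54954478-54954777), lie before the coordinates given above for the gene, which begin at 54954843. Whether either start is used in these libraries was not tested. Of the WT1 and EGR motifs, CCCTCCCCC, a repeat type in 5.16% of all windows, was in 1 of the 5, that of the upstream start of Gpm6a (183 before). The others were in 0 of the 5: GCGTGGG (5.04% of all), GTGGGAG (9.73%), GCGTGGGAG (0.472%), which holds both of these, and GCGGGGGCG (2.91%). The GC box GGGCGG, in 35.7% of all windows, was in those of Bnc1 and of the upstream start of Gpm6a. TCCTCC (34.5%) was in those of Lrrn4 and of the upstream start of Gpm6a, and the TATA box TATAAA (13.6%) in that of the downstream start of Gpm6a. The GATA motifs AGATAA (11.2%) and TGATAA (9.05%) and the AP-1 motif TGAGTCA (5.20%) were in 0 of the 5. The 250 bases before the start of Bnc1 were 83.6% G or C, against 59.2% for Lrrn4 and 60.8% for Upk3b. For Gpm6a they were 44.4% at the upstream start and 33.6% at the downstream start. A match is a description of these letters and not of binding.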

How the data were processed

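RNA of 2 libraries of 1 group was analysed. Per the notes deposited with the tables, reads were aligned to mm10 transcripts with GENCODE M4, and no source used here names the counting program. The authors deposited, per gene and transcript, an expected count (estimated, with shared reads divided), TPM and FPKM, and for transcripts the percent of the gene's TPM. The authors' TPM intervals have no stated level. The mm9 junction and contig tables were not used here, since they carry no gene names.

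Symbols, coordinates and exons came from GENCODE M21 on GRCm38 (42462 of 43346 identifiers matched); the 6 coding Wt1 transcripts have the same lengths in both releases. Expected counts were rounded and scaled with TMM factors (edgeR 4.0.16, R 4.3.3; 1.20 and 0.837), without spike-ins. Each ratio of replicate 1 over replicate 2 has a 95% interval by the exact Clopper-Pearson method, from how its counts divide between the libraries; ratios of ratios have intervals from the logarithm's standard error, computed with Python 3.11.15. A fold against 0 counts used a floor of 3 counts. No p-value was computed, as each side is 1 library; the spread between libraries may be technical. The 3 genes of highest mean TPM of each list and genes at 0 in both libraries were named by rule; others were chosen after their values were seen. The members and lists were chosen with earlier results of these data known. Alternatives covered scaling with DESeq2 1.42.0 size factors, total counts and spike-ins, filters, thresholds, pseudocounts of 0.1 and 1, and left-out libraries. Some listed genes are not reported here.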

Additional observations from a re-analysis of the deposited data

How the results depend on the processing

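All 56 alternative log2 ratios of the 7 genes, over 8 settings of scaling, unit and pseudocount, were on the side of replicate 1. Of these, 41 kept their side of the 2-fold bound and 15 moved past it; the 15 were Msln, Upk3b and Gpm6a under total count and spike-in scaling and on TPM and FPKM, whose ratios have no interval here and were read as points. Of the 7 genes, the number called higher in replicate 1 was 7 with total count scaling and 7 with spike-in scaling, against 4. It was 7 at a bound of 1.5-fold and 1 (Wt1) at 4-fold. At a mean scaled count of at least 500 it was 3 of 5. The shares of all tested genes called higher in replicate 1 were 22.3%, 20.9%, 19.5%, 6.19% and 8.93% in the same order, against 12.5%. Over all genes, 3101 were called in either direction, 5336 at 1.5-fold, 1116 at 4-fold and 2033 at a mean scaled count of at least 500. The percent of Wt1 without KTS was 57.5, and 46.4 by expected counts and 57.2 by posterior mean TPM; without either replicate it was 57.4 to 57.6. The percent with exon 5 was 19.5, and 37.5 by expected counts; without either replicate it was 17.4 to 21.5. Expected counts weight longer transcripts more by construction. The number of genes at 1 TPM or more in both libraries, 6, was 6 without replicate 1 and 7 without replicate 2. No paired analysis was possible because the series has a single group. Depth limits Bnc1 and Gpm6a most, with 141 and 160 counts in replicate 2; 3 counts of a transcript of 1 kb correspond to 0.0798 and 0.0680 TPM in replicates 1 and 2.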
